A study of Bos taurus with 6 samples.

Results

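Very deeply covered windows were 500-bp stretches of chromosomes 1 to 29 in which a CpG cytosine carried, on average, at least 60 reads when 6 libraries were summed. They were chosen on that depth alone, among windows with at least 3 CpG rows, a row being 1 cytosine of a CpG on 1 strand. Of 3246005 autosomal windows with at least 3 rows, 2131 (0.0656%) met the rule, and they are called deep windows here. Methylation was measured by whole-genome bisulfite sequencing (WGBS), in which unmethylated cytosines are converted and read as thymine, in rumen epithelial primary cells (REPC). REPC are cultured cells from the lining of the rumen, and they came from the rumen of 1 Holstein bull calf, 2 weeks old, that had received milk replacer alone. The 3 butyrate libraries came from cells kept for 24 h with 5 mM butyrate, a short-chain fatty acid of rumen fermentation that inhibits histone deacetylases, and the 3 control libraries from untreated cells, so that both groups shared the animal and the cell type. The study's methods call the replicates biological, but no label gave separate animals or cell preparations for them, and p-values therefore measure only the spread between these libraries, which may be technical. Lane 5 carried butyrate replicates 1 and 3, whereas lane 6 carried the remaining butyrate library and every control. Lane and treatment were thus partly confounded, and values from lane 6 are given beside the main pooled ones. Wherever 3 butyrate values are listed, the second is the lane 6 library.

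Mammalian genomes are methylated at most CpGs, and repeated sequences such as satellites and copies of transposons usually carry this mark in somatic cells, where it limits their transcription. Cattle centromeres hold long arrays of satellite DNA. In a draft assembly, near-identical copies can be merged or left out, and reads from all of them then pile up on the copies that remain. The number of genomic copies behind a window was not measured, the genome sequence was not used here, and the genes in these windows were not analysed here. Thymines in the sequence of some copies would be read as unmethylated, and whether there were any was not tested. Positions refer to the cattle assembly UMD3.1.1.

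The deep windows held 98793 CpG rows, 0.267% of the autosomal rows, and 7.97% of the autosomal reads. Their mean depth ran from 60 to 385 reads per row over the 6 libraries, with a median of 83.4, against a median of 2.35 over all autosomal windows with at least 3 rows. In total, 1466 windows lay between 60 and 100 reads, 663 between 100 and 300, 2 between 300 and 1000, and 0 at 1000 or more. Just inside the limit, 4 windows tied at 60 reads per row, chr8:74514501-74515000, chr11:23369501-23370000, chr14:7194001-7194500 and chr16:63248001-63248500, with levels of 64.7%, 26.1%, 72.9% and 76.9%. The 2 just outside it, chr25:30335001-30335500 and chr1:145423501-145424000, had 59.97 and 59.95 reads per row and levels of 74.7% and 42.1%. The limit thus cut through a continuous range of depths, and 4135 windows had at least 40 reads per row.

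The depth of a deep window varied little between libraries. Over the 6 libraries, the coefficient of variation of a window's relative depth had a median of 8.403%, and Pearson's r of log2 depth across the deep windows was 0.974 to 0.983 between pairs of libraries that share the rule. Of the CpG rows in deep windows, 68.4% had a read in every library, against 1.39% of rows elsewhere, which follows largely from the depth that chose them. Deep windows held 37420 of the 69329 autosomal rows (54.0%) with at least 10 reads in all 6 libraries.

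The deep windows were dense in CpGs. They had a median of 46 CpG rows (range 3 to 160), against 7 in the other windows, and 1607 of them (75.4%) had over 30 rows, against 5.04% of the others. Rows were counted only where a read was present, so the counts of the thinly covered windows were limited by their depth. Strand depths were often unequal. Among CpGs with at least 30 reads on each strand, a minimum that leaves less room for unequal strands where depth is lower, 29.6% of those in deep windows had strand depths beyond a ratio of 3 to 1, against 14.1% elsewhere, whereas the levels of both strands lay close together, with a median difference of 4.64 points and r = 0.912 over 14670 CpGs.

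Deep windows lay in groups. A deep window was present in 362 of 2529 1-Mb bins, and 24 bins with at least 20 of them held 819 (38.4%). With gaps of up to 5 kb allowed, the 2131 windows formed 676 blocks, and the 122 blocks of at least 5 windows held 1145 windows. The largest block, chr29:19399001-19449500, had 53 deep windows in 50500 bp, followed by chr4:41465001-41497500 with 37 and chr13:48991001-49021500 with 35. Chromosome 27 had the highest density, 27.8 deep windows per 10000 windows, and chromosome 12 the lowest, 1.31. The first 10% of the length of each chromosome held 9.71% of the deep windows and 9.56% of all windows, and the last 10% held 13.9% and 12.8%. The first 1 Mb of the chromosomes held 49 deep windows (2.30%, beside 1.12% of all windows), and the last 1 Mb held 33 (1.55%, beside 1.57%). Of the 49, 32 lay on chromosome 14 alone.

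Depth fell with distance from a deep window, although the first step down follows largely from the depth that chose the windows. The median depth was 34.5 reads per row in the windows 500 bp to either side, 24.7 and 24.5 at 2000 bp, 13.3 and 12.7 at 10000 bp, and 4.80 and 4.42 at 20000 bp. It was still above the autosomal median of 2.35 at that distance. The neighbours included other deep windows, which made up 26.8% and 26.7% of them at 500 bp and 8.99% and 9.02% at 20000 bp. The fall was gradual in the median, while the quartiles moved apart within a few kilobases.

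**Figure D1:**
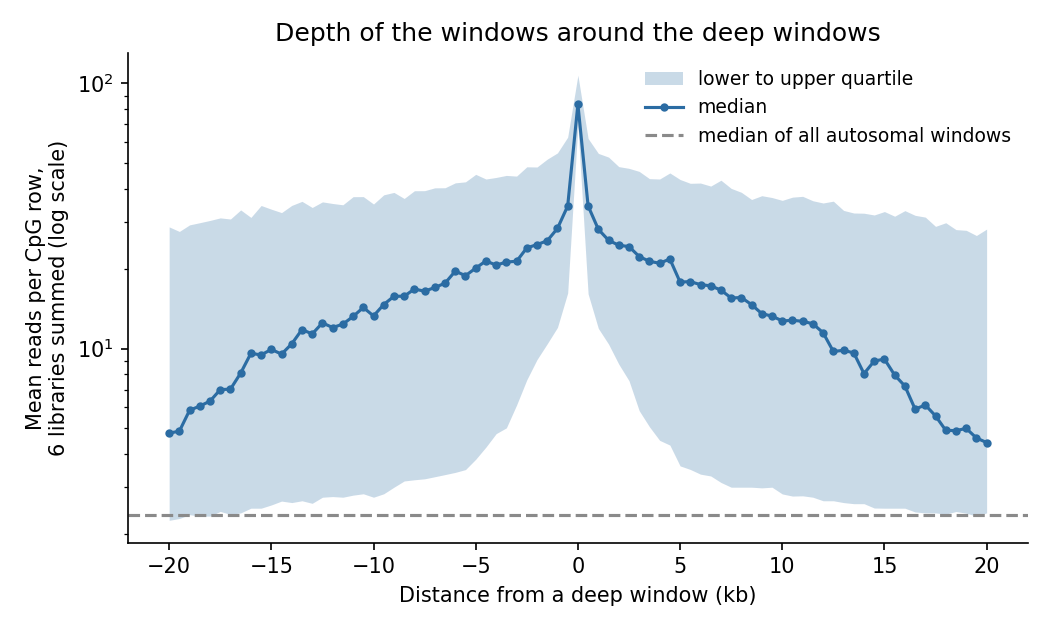
Mean reads per CpG row, with the 6 libraries summed, in windows at each distance from a deep window (x axis in kb, y axis on a log scale). The line is the median and the band runs from the lower to the upper quartile, and the median falls from 83.4 at the deep window to 34.5 at 500 bp and stays above the dashed autosomal median of 2.35 out to 20 kb. The first step down follows largely from the choice of windows by depth, and the neighbours include other deep windows.

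Most deep windows had an intermediate methylation level. With the 6 libraries pooled, the median level of a deep window was 69.7% (quartiles 61.6% and 74.8%, range 4.27% to 91.5%), and 1533 windows (71.9%) lay between 60% and 80%. Other windows with over 30 CpG rows were spread more widely, with 24.2% of them under 10%, 21.6% from 80% to under 90% and 19.6% at 90% or more, against 0.845%, 6.29% and 0.0939% of the deep windows. Only 70 deep windows were under 20% and 136 at 80% or more. Sites within a window differed from each other, in deep windows and elsewhere. Among 2082 deep windows with at least 5 rows of at least 30 reads, the median SD between rows was 18.0 points, the lowest row had a median of 23.6% and the highest a median of 93.6%. In 7585 other windows that met the same minimum, these values were 18.8 points, 29.8% and 93.2%. The level of a deep window was therefore an average over CpGs of unlike levels.

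**Figure D2:**
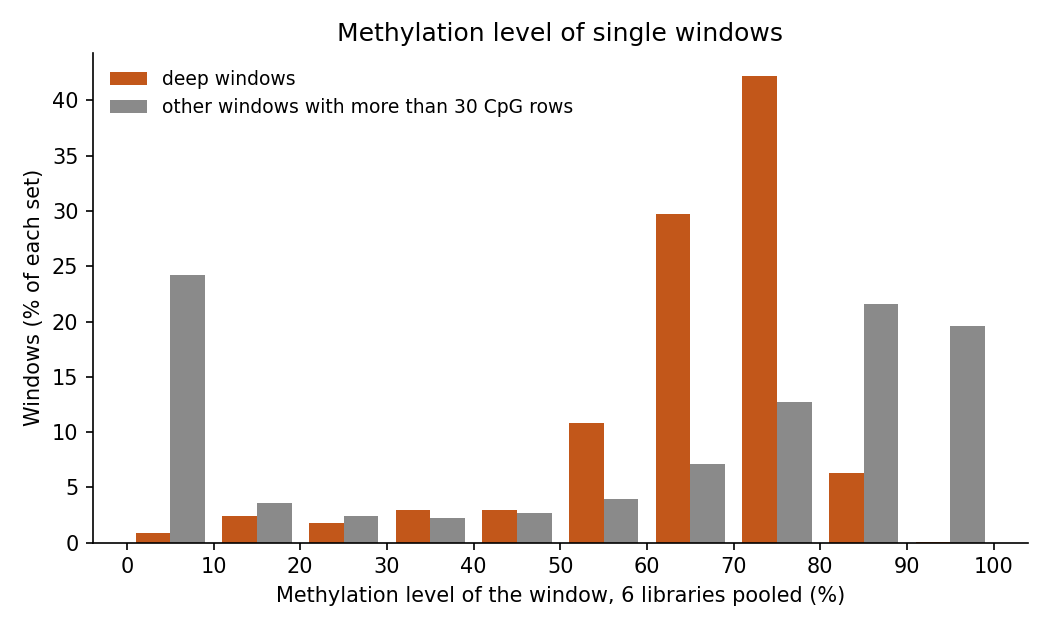
Share of windows (y axis, percent of each set) in each 10-point class of methylation level (x axis, percent, 6 libraries pooled), for deep windows and for other autosomal windows with more than 30 CpG rows. The deep windows pile up in the classes from 60% to 80% (29.8% and 42.2%), which hold 7.08% and 12.7% of the other dense windows.

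The level of deep windows was compared with that of the other autosomal windows on the 67555 and 488840 rows that had a read in all 6 libraries. In control, deep windows had levels of 66.4%, 66.7% and 66.4%, and the other windows 65.6%, 65.9% and 65.6%. In butyrate, deep windows had levels of 67.3%, 67.0% and 67.1%, and the other windows 66.6%, 66.3% and 66.5%. Deep windows were higher in 6 of 6 libraries, by 0.753 points ± 0.0764 (SD, n = 6; two-sided exact sign-flip permutation test, p = 0.031, the smallest that 6 libraries allow). The sign rested on the weighting: with every window given the same weight, the difference was -2.62 points and was negative in 6 of 6 libraries. The shared rows of the other windows were themselves deep for the genome, with a mean of 26.3 reads over the 6 libraries against 3.07 for all their rows.

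The direction depended on the number of CpG rows. In windows with 3 to 5 rows, 22 deep windows had a level of 43.1% and the others 61.7%. In windows with 6 to 15 rows, 129 deep windows had 59.1% and the others 65.98%. In windows with 16 to 30 rows, 373 deep windows had 62.6% and the others 65.8%. Deep windows minus others gave -18.6, -6.92 and -3.21 points in these 3 classes, and deep windows were the lower set in every library. In windows with over 30 rows, 1607 deep windows had 67.4% and the others 66.2%, so that deep windows were higher by 1.13 points ± 0.136 (SD, n = 6). All 4 differences had the same sign in 6 of 6 libraries (two-sided exact sign-flip permutation test, p = 0.031, and 0.031 after Benjamini-Hochberg adjustment over the 4 classes). With all rows of each library, the gap in the densest class was 12.5 points, 67.2% against 54.7%, and in the 3 sparser classes, from the sparsest, it was -24.4, -13.5 and -10.1 points.

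**Figure D3:**
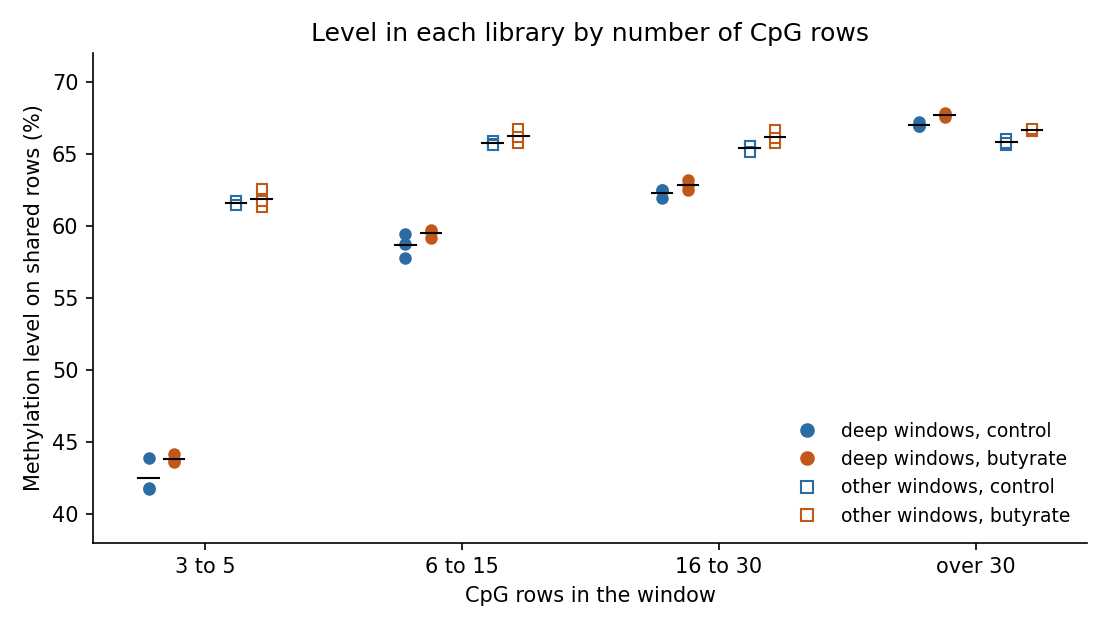
Methylation level on shared rows (y axis, percent, not starting at 0) in each library, by the number of CpG rows in the window (x axis). Filled circles are deep windows, open squares other autosomal windows, blue control and orange butyrate, and lines are means of 3 libraries. Deep windows sit under the others in the first 3 classes and above them at over 30 rows.

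The study asked how butyrate changes the epigenome of these cells, and the first treatment comparison was the level of deep windows in both groups. Control libraries had 66.39%, 66.68% and 66.36% and butyrate libraries 67.32%, 66.98% and 67.08%. Each butyrate library exceeded each control. The means were 66.5% ± 0.175 (SD, n = 3) and 67.1% ± 0.176 (SD, n = 3), a difference of 0.651 points (two-sided exact permutation p = 0.1, the smallest that 3 against 3 allow). Each library's level rested on 1404597 to 1756825 reads, which gave 95% Wilson intervals of at most 0.0781 points to either side, for counting error only. On lane 6, butyrate replicate 2 exceeded each control and was 0.506 points above their mean.

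The difference was also present outside deep windows. On their shared rows, the other autosomal windows were higher in butyrate by 0.765 points, again without overlap (two-sided exact permutation p = 0.1). The gap between deep and other windows was 0.830, 0.810 and 0.790 points in control and 0.745, 0.724 and 0.620 points in butyrate, a change of -0.114 points without overlap (two-sided exact permutation p = 0.1). That change was small and turned with the rows used: with all rows of each library it was 0.0545 points (two-sided exact permutation p = 0.7), and with every window weighted the same 0.108 points (p = 0.3 in the same exact test). On lane 6 alone it was -0.0866 points.

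The share of reads in deep windows comes from the same counts whose sum over the 6 libraries chose them, and is given as a description. This share of autosomal reads was 7.94%, 7.84% and 7.97% in control and 7.94%, 8.03% and 8.11% in butyrate. The groups overlapped, with a difference of 0.112 points between the means and of 0.111 points on lane 6. The groups separated without control replicate 3 (0.138 points) or without butyrate replicate 1 (0.154 points), whereas leaving out control replicate 2 gave 0.0724 points, and leaving out butyrate replicate 3 gave 0.0694 points, with overlap in both.

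Depth classes were compared next. Windows of 60 to 100 reads had 66.5%, 66.8% and 66.4% in control and 67.4%, 67.2% and 67.3% in butyrate, a difference of 0.736 points. Windows of 100 to 300 reads had 66.2%, 66.4% and 66.2% in control and 67.2%, 66.6% and 66.7% in butyrate, a difference of 0.561 points. The 2 deepest windows had 77.2%, 76.8% and 76.7% in control and 77.2%, 77.5% and 77.2% in butyrate, a difference of 0.461 points. The third class rests on 88 shared rows, 72 of them in chr8:44637001-44637500 (0.607 points), while the other window, chr12:79834501-79835000, differed by -0.358 points, and neither separated alone. As classes, butyrate was above control without overlap in each of the 3 (two-sided exact permutation p = 0.1 for each, and 0.1 after Benjamini-Hochberg adjustment). Butyrate replicate 2 was above the mean of the lane 6 controls by 0.655, 0.344 and 0.640 points. With all rows of each library, 2 of the 3 classes did not overlap.

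Windows were also split by their level over the 6 libraries, as a description. The 1763 windows of 50% to under 80% had 69.2% ± 0.0164 in control and 69.9% ± 0.1004 in butyrate (SD, n = 3 each), and the 136 windows of 80% or more had 82.8% ± 0.0665 and 83.4% ± 0.107 (SD, n = 3 each), both without overlap of the groups. The 145 windows of 25% to under 50% had overlapping groups, with means of 37.8% for control and 38.4% for butyrate. The 87 windows under 25% had 12.9%, 13.4% and 12.7% in control and 13.6%, 12.4% and 12.8% in butyrate, which did not separate and whose means differed by -0.0662 points. On lane 6, butyrate replicate 2 differed from the control mean by -0.554 points in the windows under 25% and by 0.703, 0.601 and 0.624 points in the next 3 classes. Without these 87, deep windows had 69.3%, 69.4% and 69.3% in control and 70.19%, 69.93% and 70.02% in butyrate, a difference of 0.706 points without overlap. Single CpG rows gave the same picture. Of the 37420 rows with at least 10 reads in all 6 libraries, the share at 80% or more was 37.0% ± 0.389 in control and 38.5% ± 0.261 in butyrate (SD, n = 3 each), a difference of 1.503 points without overlap (two-sided exact permutation p = 0.1), and of 1.25 points on lane 6. The share from 20% to under 80% went from 56.6% to 55.2%, also without overlap, and differed by -1.30 points on lane 6, while the share under 20% was 6.34% and 6.29%, with overlapping groups, and butyrate replicate 2 was 0.0526 points above the control mean and above all controls. The 31899 such rows of other windows had a larger difference in the share at 80% or more, from 35.7% to 37.7% (1.99 points), and one of -1.92 points in the share from 20% to under 80%, both without overlap. Shares of single rows also depend on depth, which averaged 220 reads per row in deep windows and 131 in the others, so these differences are not comparable between the sets. Within each group and set, the share at 80% or more was highest in the library with fewest autosomal reads. The part of depth in the treatment difference was not tested.

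The bins with most deep windows were then compared with each other. The richest, 82000001 to 83000000 on chromosome 3, held 75 deep windows, and 48.0% of its CpG reads lay in them. Its deep windows had 70.8%, 71.0% and 70.7% in control and 71.4%, 71.3% and 71.7% in butyrate, without overlap. The bin at 19000001 to 20000000 on chromosome 29 held 57 windows and 76.8% of its reads, with 61.2%, 61.1% and 61.2% in control and 61.4%, 61.8% and 61.3% in butyrate. The groups did not overlap there either, but were only 0.313 points apart. The bin at 145000001 to 146000000 on chromosome 1 held 49 windows, with 51.5%, 51.1% and 51.1% in control and 51.8%, 52.2% and 52.7% in butyrate. It was the lowest in level of the 8 richest bins. Of the other 5, those at 110000001, 56000001 and 74000001 on chromosome 8 held 46, 43 and 43 windows at 72.2%, 71.8% and 68.1%. Those at 28000001 on chromosome 27 and 41000001 on chromosome 4 held 48 and 38 windows at 69.3% and 59.9%.

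Over the 24 bins with at least 20 deep windows, levels ran from 14.8% to 76.9%, a range far wider than any treatment difference. The deep windows were higher in butyrate in 22 of 24 bins, with a median difference of 0.653 points (range -0.367 to 1.37). The other windows were higher in 59.5% of 2528 bins, with a median difference of 0.611 points, but on far fewer reads, a median of 177 per bin and library. For the deep windows, each butyrate library exceeded each control in 12 bins, and in 0 bins each was lower. For the other windows on their shared rows, each butyrate library exceeded each control in 8.31% of the bins. The share of their bins in which each was lower is not given here, so the count of 0 has no share beside it. The deep windows of a bin carried 7494 to 67796 reads in a library on shared rows, so that counting error was smaller than in the other windows' bins and the shares of both sets are not comparable. With 3 libraries against 3 no bin could reach p under 0.1 in a two-sided exact permutation test, and the smallest p after Benjamini-Hochberg adjustment over 24 bins was 0.2. On lane 6, butyrate replicate 2 was above the control mean in 20 of 24 bins, above all controls in 15 and below all controls in 2. Its differences ran from -0.908 to 1.48 points. These lane 6 counts were not made for the other windows' bins, so they have no share beside them. The bins that were lower in butyrate were both on chromosome 27, at 23000001 to 24000000 (-0.367 points) and 26000001 to 27000000 (-0.292 points), and both had overlapping groups. They were also the bins with the lowest levels, 14.8% and 24.6%. The other windows of these bins differed by -0.484 and 0.0715 points.

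**Figure D4:**
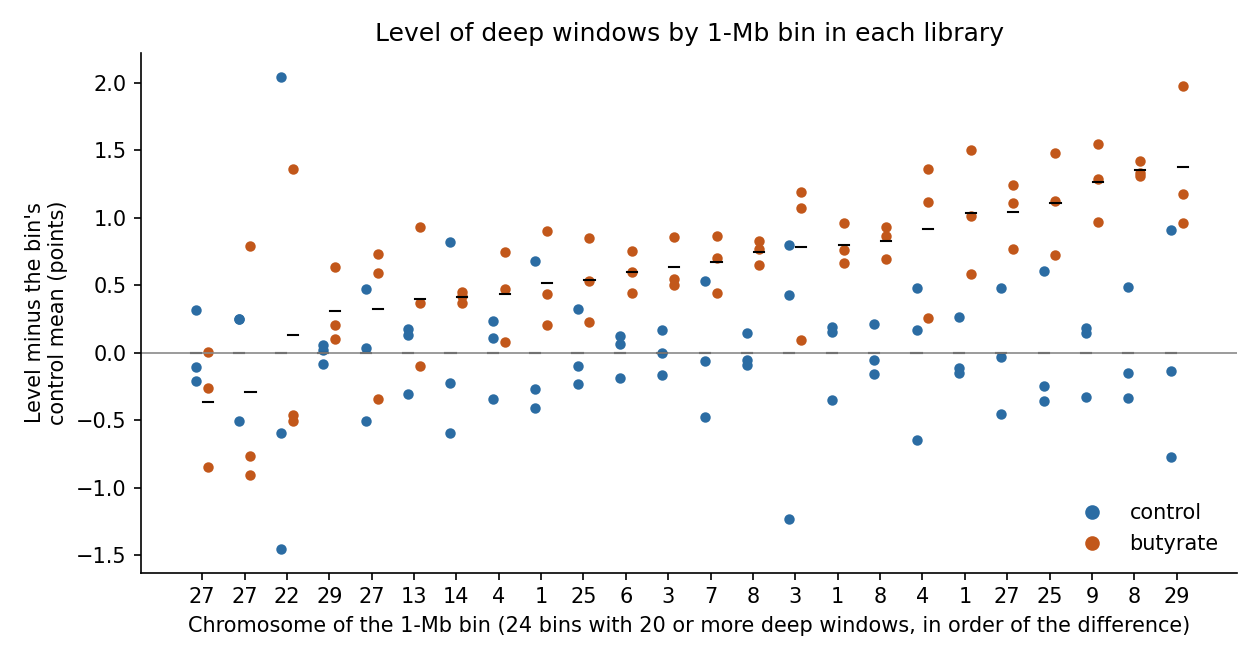
Level of the deep windows in each library minus the control mean of the same 1-Mb bin (y axis, percentage points), for the 24 bins with at least 20 deep windows, ordered by the difference and labelled by chromosome. Blue points are control, orange butyrate, and lines are means of 3 libraries. In 22 bins the butyrate mean is above 0, and the 2 bins under 0 are on chromosome 27.

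Weakly methylated deep windows were rare and also grouped. Of the 87 windows under 25%, 48 lay in 7 blocks that held at least 3 of them each, on chromosomes 3, 4, 8 and 27. The block chr27:23690501-23725000 had 21 deep windows, 13 of them under 25%, and levels of 14.8%, 15.3% and 14.9% in control and 15.03%, 14.2% and 14.8% in butyrate. The block chr27:26348001-26387000 had 21 windows, with 25.5%, 25.8% and 25.6% in control and 24.8%, 24.9% and 25.8% in butyrate. The block chr4:103646001-103664000 had 17 windows, with 15.5%, 14.95% and 14.3% in control and 16.02%, 15.2% and 15.2% in butyrate. In all 7 blocks the groups overlapped. These blocks were not uniform, since the chr27:23690501-23725000 block ran from 8.47% to 57.9% between its windows. Over all deep windows the SD of the level was 15.1 points, and within blocks it was 9.30 points.

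The 6 deepest windows, with at most 1 taken from a bin, had unlike levels. The deepest, chr12:79834501-79835000, had 385 reads per row and levels of 81.3%, 81.7% and 84.1% in control and 82.2%, 80.7% and 83.1% in butyrate. The next, chr8:44637001-44637500 (329 reads), chr11:80522501-80523000 (296 reads) and chr7:51288001-51288500 (285 reads), had mean levels of 76.1%, 76.95% and 69.4%. In these 4 the groups overlapped. The remaining 2 were weakly methylated. Window chr27:23702501-23703000 (293 reads) had 8.12%, 7.87% and 7.61% in control and 10.2%, 8.64% and 8.62% in butyrate, without overlap, and chr4:103654001-103654500 (282 reads) had a mean of 11.5% with overlapping groups. Very high depth was thus found in windows near the top and near the bottom of the range of levels.

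The ends of that range, among windows with at least 10 shared rows, were also compared. The lowest levels were 6.87%, 7.19% and 7.47% in chr7:89227001-89227500, chr4:103653501-103654000 and chr8:61280501-61281000. The highest were 90.3%, 88.3% and 88.1% in chr2:137023001-137023500, chr2:137022001-137022500 and chr8:74736501-74737000. In all 6 the groups overlapped.

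With no sequence at hand, the spacing of CpGs was used to see whether deep windows resemble each other. A run was a set of 8 successive distances between CpGs read on both strands, taken in either orientation, a choice made after these data were seen. A run could be formed in 979 deep windows, and 716 of them (73.1%) shared a run with another deep window, 702 of them with a window on another chromosome. Among windows of 20 to under 60 reads per row, 76.5% of 3287 shared a run within their own set, and among windows under 20 reads 2.17% of 239259 did. With runs of 6 and 10 distances, 80.2% and 61.5% of the deep windows that could be assessed shared one. The sets differ in size and in how completely their CpGs were read, and the shares are a description. In plain terms, most assessable deep windows held a run of CpG distances that recurred exactly on another chromosome, while bases were not compared.

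Windows that shared a run, directly or through others, were joined into families. Family 1 had 623 deep windows on all 29 autosomes, with most on chromosome 8 (77) and chromosome 3 (59). Its level was 71.45%, 71.48% and 71.51% in control and 72.16%, 72.02% and 72.20% in butyrate. Each butyrate library exceeded each control, by 0.644 points between the means, against an SD of 0.0290 between controls and 0.0956 between butyrate libraries. Butyrate replicate 2 was 0.535 points above the lane 6 controls. The levels of its single windows ran from 54.2% to 83.0%, with a median of 72.6%.

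The other families were small. Family 2 had 29 windows, 9 on chromosome 29 and 8 on chromosome 13, and its level was 60.4%, 60.6% and 60.8% in control and 61.1%, 61.96% and 61.7% in butyrate, again without overlap. Families 3, 4 and 6 had 13, 9 and 5 windows with mean levels of 74.1%, 63.6% and 82.6%, and their groups overlapped. Family 5 was low in level. Its 8 windows lay on 7 chromosomes, each had a level between 6.89% and 14.9%, and the family had 8.73%, 9.39% and 9.73% in control and 10.5%, 9.57% and 8.78% in butyrate. These groups overlapped. The 292 assessable windows in no family of at least 5 had means of 63.30% in control and 63.95% in butyrate, and the 1152 windows in which no run could be formed had 65.2% and 65.8%, both without overlap. On lane 6, butyrate replicate 2 differed from the control mean by 1.33, 0.887, -1.01, 0.285 and 1.54 points in families 2 to 6, by 0.452 points in the windows of no such family and by 0.485 points in those with no run. Family 4 turned sign there, since its pooled difference was 0.708 points.

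Levels were then read CpG by CpG along the runs of families 1, 2 and 5, which were picked after their values were seen. The most frequent run of family 1 was present in 82 deep windows, with 9 CpGs at 0, 3, 10, 19, 22, 29, 41, 52 and 58 bp from the first. In control, the mean levels at these CpGs were 85.6%, 91.8%, 76.0%, 87.6%, 93.4%, 67.3%, 32.2%, 72.6% and 64.3%, in that order. The CpG at 41 bp stood out as low, and whether some copies carry a thymine there was not tested. Its level was 32.76%, 31.996% and 31.80% in control and 33.7%, 31.3% and 31.8% in butyrate. Its neighbour at 52 bp had 73.1%, 72.2% and 72.5% in control and 73.2%, 73.4% and 73.3% in butyrate. Between the 82 copies the SD at a single CpG was 3.58 to 7.69 points, which was small beside the 61.2 points between the highest and the lowest CpG of the run. At the CpG at 41 bp, the copies ran from 17.2% to 45.0%, and the next lowest CpG, at 58 bp, had a median of 65.7% over the copies. Treatment differences at these CpGs were between -0.122 and 1.28 points.

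The same reading of family 5 gave a flat and low profile. Its most frequent run was present in 6 deep windows on CpGs that spanned 37 bp. Control means at its 9 CpGs were between 9.74% and 19.5%, and the highest was the second CpG, 5 bp from the first, with 19.2% to 20.1% in the control libraries and 19.4% to 22.5% in the butyrate libraries. The SD between its copies at a single CpG was 1.89 to 3.93 points. In family 2, the most frequent run was present in 7 windows, and control means at its 9 CpGs were between 40.6% and 65.5%, with an SD between copies of 3.95 to 11.2 points. The spread between copies was thus larger, relative to the range along the run, than in family 1.

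**Figure D5:**
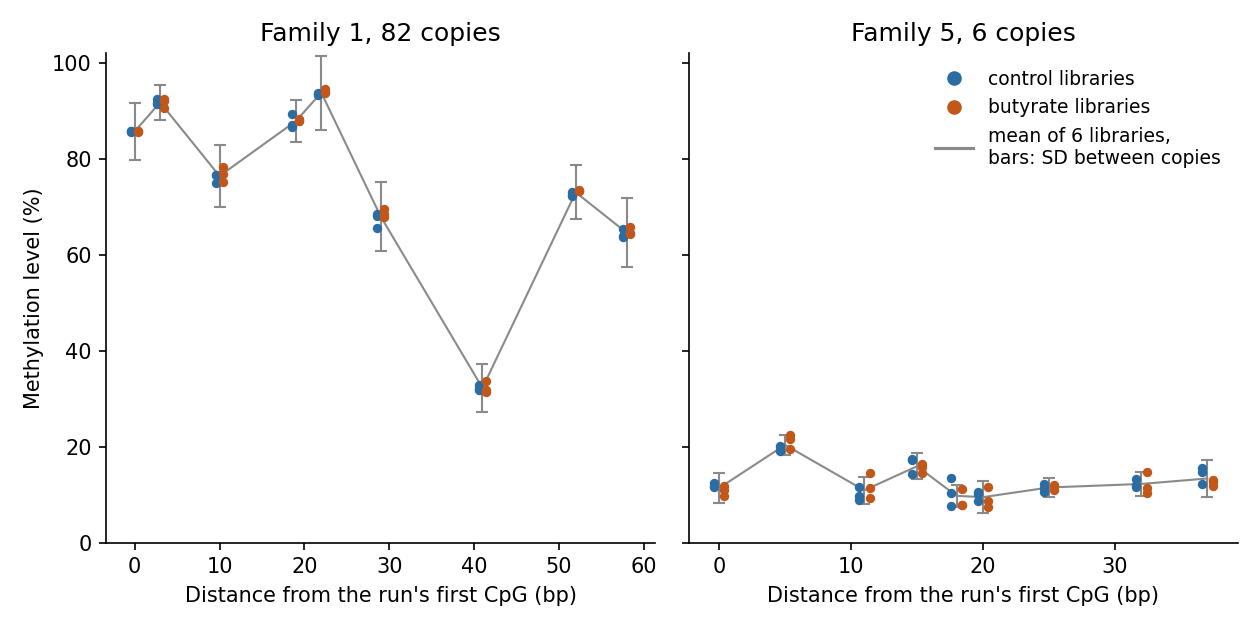
Methylation level (y axis, percent) at the 9 CpGs of the most frequent spacing run of family 1 (82 copies) and family 5 (6 copies), by distance from the first CpG of the run (x axis, bp). Blue points are control libraries, orange butyrate libraries, the grey line is the mean of 6 libraries and bars are the SD between copies. The CpG at 41 bp of family 1 lies near 32%, far below its neighbours, in all 6 libraries.

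Single windows were tested for differentially methylated regions (DMRs) by the cut-offs that the study's methods give, on CpG rows with at least 10 reads in all 6 libraries. The study adjusted by the SLIM method, in place of which Benjamini-Hochberg adjustment was used here. In total, 8501 windows of the whole series could be tested, and 2126 of the 2131 deep windows were among them, so that deep windows made up 25.01% of the tested windows and held 59.4% of their reads. A deep window had a median of 510 reads per library and another tested window 97. Deep windows were higher in butyrate in 1374 cases (64.6%), against 59.9% of all tested windows. Their median difference was 0.699 points (quartiles -0.532 and 1.98), against 0.765 points (quartiles -1.44 and 2.98) in all tested windows. All butyrate libraries lay above all controls in 208 deep windows (9.78%), beside 7.73% of all tested windows, and below them in 50 (2.35%), beside 3.16%.

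Few deep windows passed a test one by one. In logistic regression with no overdispersion term, and with Benjamini-Hochberg adjustment over all 8501 windows, 10 deep windows (0.470%) had q under 0.05, beside 0.212% of all tested windows, 6 of them higher and 4 lower in butyrate. None of the deep windows also passed a difference of 10 points, beside 0.0471% of all tested windows, and at unadjusted p under 0.05 the logistic regression had 265 deep windows (12.5%), beside 9.47% of all tested windows. The DMR count of 0 became 2 (0.0941%) without control replicate 1 or without butyrate replicate 3, beside 0.188% and 0.106% of all tested windows at these settings, and 1 (0.0470%) without control replicate 3 or without butyrate replicate 1, beside 0.0471% and 0.106%. A quasi-binomial F test, which allows for spread between libraries, called 0 deep windows, with 125 (5.88%) at unadjusted p under 0.05, beside 5.42% of all tested windows. limma on log2 ratios of methylated to unmethylated reads called 0, with 36 deep windows (1.69%) at unadjusted p under 0.05, beside 5.73% of all tested windows. The smallest adjusted p of a deep window in limma was 0.851. The limma fit used no weights for depth, and windows of unlike depth shared a common prior for their variance. Its shares for deep and other windows are therefore not comparable.

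The 3 deep windows with the smallest logistic p among those higher in butyrate were on different chromosomes. Window chr13:48996001-48996500 had 53.8%, 55.8% and 50.4% in control and 61.5%, 65.9% and 56.0% in butyrate, a difference of 7.88 points (Benjamini-Hochberg adjusted q = 4.35e-06 in logistic regression), which fell to 5.24 points without butyrate replicate 2. Window chr2:66268001-66268500 had 15.2%, 25.1% and 20.6% in control and 24.97%, 28.4% and 25.2% in butyrate, a difference of 6.06 points (q = 1.49e-05) that was 3.37 points without control replicate 1. Window chr23:19998501-19999000 had 70.9%, 65.4% and 68.1% in control and 75.5%, 73.1% and 76.8% in butyrate, a difference of 7.06 points (q = 0.00144). The groups overlapped in the chromosome 2 window and not in the others. The spread between libraries exceeded counting error, with dispersions of 6.97, 10.6 and 1.83.

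The 3 with the smallest p among those lower in butyrate all lay in the weakly methylated block on chromosome 27. Window chr27:23703001-23703500 had 12.9%, 15.6% and 11.5% in control and 8.17%, 10.2% and 9.64% in butyrate. The difference was -3.95 points (q = 0.00205), and the groups did not overlap. Window chr27:23690501-23691000 had 12.1%, 11.7% and 17.1% in control and 8.26%, 3.60% and 7.87% in butyrate, a difference of -7.15 points (q = 0.00714). Window chr27:23711501-23712000 had 16.2%, 15.3% and 15.9% in control and 10.5%, 11.1% and 14.2% in butyrate, a difference of -4.14 points (q = 0.0132). The groups did not overlap in these windows either, on rows with at least 10 reads in all 6 libraries. On rows with a read in all 6 libraries, 2 of the block's 21 deep windows were lower without overlap and 2 were higher. Not all of these 3 windows were thus separated on those rows. The block as a whole did not separate on them, and window chr27:23702501-23703000, which adjoins chr27:23703001-23703500, was higher in butyrate. In limma, the 6 windows had unadjusted p between 0.0146 and 0.0840 and adjusted p between 0.851 and 0.903. On lane 6, butyrate replicate 2 was beyond all 3 controls, in the direction of the difference, in each of the 6 windows. The windows were chosen by p-values that included this library, so its position was largely set by the choice.

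Levels in deep windows were reproducible between libraries. Across 2076 deep windows with at least 100 reads in each library, which share the same rule and are not independent, Pearson's r of the level was 0.973 to 0.979 between libraries, with a mean of 0.9757 within groups and 0.9758 between groups. The SD between the 3 libraries of a group had a median of 1.76 points in control and 1.74 points in butyrate. The counts of replicate pairs had a chi-square over degrees of freedom of 1.43 to 1.57, in which reads are treated as independent, and the labels give the libraries as separate samples.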

How the data were processed

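The authors deposited 1 table per library with raw counts of methylated and unmethylated reads at each CpG cytosine, strands apart and without a header. The column of methylated counts was recognised from the values. Per the study's methods, reads were trimmed with Trim Galore 0.4.1, mapped to UMD3.1.1 with bowtie2 and passed to Bismark at default settings. The submitters' notes name UMD3.1. At those settings Bismark keeps reads with a unique best place, and the study gives a rate of uniquely mapped reads. Not given in the sources used here were the conversion rate and duplicate removal. Labels and methods name different run types.

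The 6 tables were joined, and the libraries had 17923575 to 22751720 autosomal reads. Windows of 500 bp began at position 1. The level was methylated reads over all reads, on rows with a read in all 6 libraries unless stated. Single-window tests and their levels used rows with at least 10 reads in all 6 libraries. The choice of windows and comparisons was made with earlier results of these data known. Windows are named by fixed rules: the 6 deepest, the 8 richest bins, the 3 smallest logistic p in each direction, 2 on each side of the limit (with the 2 that tied), and the 3 lowest and highest levels. Groups were compared by two-sided exact permutation tests, deep and other windows by exact sign-flip tests, and single windows by logistic regression (q under 0.05 and over 10 points) and limma 3.58.1 on log2 ratios with an offset of 1, both over all tested windows of the series. Intervals cover counting error only, since reads without molecular identifiers are not independent molecules. Scripts used Python 3.11.15, numpy 2.4.6, scipy 1.17.1, pandas 2.3.3, matplotlib 3.10.9 and R 4.3.3, and were tested on simulated data. The alternatives were other row minimums, weightings, depth limits, scaling, lane 6 alone, a replicate block and leaving out each library. Spacing runs, the split without weakly methylated windows and lane values by class were added after the data were seen.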

Additional observations from a re-analysis of the deposited data

How the results depend on the processing

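The treatment difference in deep windows kept its direction and the separation of the groups under each alternative with 6 libraries (0.559 to 0.718 points, the lowest with a limit of 100 reads) and without each library (0.553 to 0.751 points), and was 0.506 points on lane 6. The excess of deep over other windows was 0.274 to 1.03 points, or 0.738 to 0.780 without each library, and reversed to -2.62 points with window levels unweighted. The difference in effect (-0.138 to -0.0761 without each library) reversed with all rows (0.0545), unweighted CpG levels (0.0133), unweighted window levels (0.108) and a limit of 40 reads (0.00202), lost its separation with a limit of 100 reads (-0.199) or a minimum of 10 reads in each of the libraries (-0.143), and moved to -0.0866 on lane 6. The share of reads differed by 0.0694 to 0.154 points without each library, and by 0.0491 (limit of 100 reads) to 0.154 points under the other alternatives. The separated bins numbered 12 with all rows or at least 10 reads and 13 to 16 without a library, and the separated depth classes 2 or 3. Groups separate more easily with a library left out, and these bin counts have no share of the other windows' bins beside them. The DMR count was 2 of 4072 windows (0.0491%, beside 0.0471% of all tested windows) with a limit of 40 reads and 0 to 2 without each library, and limma called 0 throughout. With 10 reads asked of each library separately, 31 deep windows (1.46%, beside 1.65% of all tested windows) had q under 0.05 in place of 10, and with minimums of 5 and 20 reads 17 did each (0.798% beside 0.324%, and 0.834% beside 0.582%). At the first of these settings 0 deep windows were DMRs, beside 0.789% of all tested windows. The cause of these changes was not tested. Replicate numbers were shared between groups, and whether they pair the libraries was not tested. The deviations of same-numbered libraries correlated weakly, at 0.0229, 0.0719 and 0.0496, and those of differently numbered libraries at -0.0486 to -0.00214. Each library thus correlated best with its own number. These correlations are not independent, since the 3 deviations of a group offset each other, and no conclusion on pairing was drawn. With a replicate block, the treatment difference was 0.651 points, the difference in effect -0.114 points and the difference in share 0.112 points. Each had the same sign in 3 of 3 pairs (two-sided exact sign-flip permutation p = 0.25, the smallest that 3 pairs allow). For the share, replicate 1 had 7.9420% in control and 7.9426% in butyrate. Logistic regression with the block gave 0 DMRs and 9 deep windows (0.423%) with q under 0.05, beside 0.19998% of all tested windows. Leaving out windows of 1000 reads or more was not run, as there were 0.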

Other observations

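The spacing runs of deep windows were also looked for outside the autosomes. Of 2769 unplaced scaffolds, 1168 had a run, and 85 of these (7.28%) held a run that a deep window also had. On the X chromosome 362 of 32101 runs were shared with deep windows, and the mitochondrial sequence had 1 run, which was not among them. The scaffolds are short and thinly read, and these counts are descriptive.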
